A study of Mus musculus with 6 samples.

Results

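The genes described here are 42 mouse genes that encode lysosomal hydrolases, their activators and lysosomal membrane proteins. They were chosen as a fixed list of symbols, matched to the Ensembl identifiers of a count table of 31053 genes by a rule that uses no measured value, although the list was drawn up with earlier results of these data known. All 42 had a row, and all 42 were among the 10889 genes with enough counts to be tested. The table comes from bulk RNA-seq of the cerebellum of wild-type (WT) mice and of KIKO (knock-in knock-out) mice, in which one allele of the targeted gene is knocked out and the other is a knock-in. The study asked how the deficiency alters cerebellar microglia.

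WT mice were compared with KIKO mice, with 2 WT libraries (replicates 1 and 2) and 3 KIKO libraries (replicates 1, 2 and 3). A further WT sample, numbered 3 in the labels, was not analysed here. The labels give the tissue and the genotype only. The methods describe immune cells positive for CD45 and CD11b that were sorted with magnetic beads from 6-month-old mice, with C57BL/6 littermates of both sexes as WT controls. The sort is not in the labels. Nothing in the labels says that the libraries of a group came from separate animals, so the p-values measure the spread between these libraries, which may in part be technical. The legend for this comparison gives more mice per group than there are libraries here, and which mice gave which library is not stated in the sources used here. KIKO mice carry these alleles in every cell, so a difference between groups is not tied to one cell type. The sources also differ on the library, since the labels name a stranded kit and a lipid tissue RNA extraction, whereas the methods name a digital mRNA-seq service.

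Lysosomes are acidic organelles that degrade proteins, glycans, lipids and whole organelles delivered by endocytosis, phagocytosis and autophagy. Soluble hydrolases reach them through sorting receptors, and highly glycosylated membrane proteins line and protect the limiting membrane. Microglia, the resident macrophages of the brain, are among its richest cells in lysosomes, and inherited loss of many of the enzymes below causes storage diseases of the nervous system. Many lysosomal genes share the E-box CACGTG near their start, the core of the CLEAR element to which the transcription factor TFEB binds.

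This motif was searched in the promoter windows that RefSeq gives on GRCm38.p6, from 250 bases before to 50 bases after each transcript start. Windows were found for 37 of the 42 genes, 40 windows in all. CACGTG, which reads alike on both strands, occurred in 12 of the 40 windows (30%), compared with 2349 of 32851 windows of all genes (7.15%). The longer GTCACGTG, searched on both strands and always overlapping CACGTG, occurred in 9 windows (22.5%) compared with 738 of all windows (2.25%). The palindrome TCACGTGA occurred in 3 windows (7.5%) compared with 320 of all windows (0.974%). The 12 genes with CACGTG were Ctsd, Ctsl, Ctsf, Ctsa, Lgmn, Gaa, Glb1, Gla, Arsa, Naglu, Sgsh and Lamp1. A match describes letters in a window and shows no binding.

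The 100 bases before the start are printed for 3 genes that hold the motif and for Ctss, which holds none in its window. Ctss is the most abundant member on average over the libraries. Capitals mark CACGTG, extended where GTCACGTG is present on either strand. Lamp1 lies on the plus strand of chr8:13159061-13159160 and has the motif 4 times, Glb1 on the plus strand of chr9:114400978-114401077, Lgmn on the minus strand of chr12:102439093-102439192 before a RefSeq start that lies inside the gene, and Ctss on the plus strand of chr3:95526686-95526785.
Lamp1: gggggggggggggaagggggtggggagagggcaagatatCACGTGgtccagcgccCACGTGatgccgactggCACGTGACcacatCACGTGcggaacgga
Glb1: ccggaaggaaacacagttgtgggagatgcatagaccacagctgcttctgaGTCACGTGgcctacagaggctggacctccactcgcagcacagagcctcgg
Lgmn: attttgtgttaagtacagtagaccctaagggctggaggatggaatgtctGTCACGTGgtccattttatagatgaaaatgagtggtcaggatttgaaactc
Ctss: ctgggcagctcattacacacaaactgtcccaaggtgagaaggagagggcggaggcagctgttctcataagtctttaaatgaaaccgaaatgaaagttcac

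The libraries held between 1013107 and 1351339 counts, so that 3 counts, the floor used here, corresponded to 2.28 to 3.04 CPM (counts scaled to a common library total). Values below are CPM after scaling by TMM factors, which correct for composition and lay between 0.9712 and 1.057. KIKO replicate 2 stood apart: its correlation with the other libraries over the tested genes was 0.631 to 0.706, whereas the others correlated with each other at 0.865 to 0.918. The biological coefficient of variation was 0.468 with it and 0.238 without it, and each main count below is given with and without it. Microglial markers were present (14 of 14 tested), with summed levels of 4364 to 9417 CPM. Choroid plexus markers summed to 6657 to 14210 CPM, oligodendrocyte markers to 4506 to 18822 CPM and neuronal markers to 1723 to 2800 CPM, whereas 7 monocyte and neutrophil markers together stayed between 20.9 and 99.4 CPM. Most of the choroid plexus sum came from Ttr alone (6550 to 13953 CPM).

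No lysosomal gene differed between WT and KIKO mice after correction for all genes tested, by edgeR's quasi-likelihood test with Benjamini-Hochberg adjustment or by DESeq2. The same held for every other gene (0% of 10889), and 131 genes, 1 of them lysosomal, had an unadjusted p under 0.05 with edgeR. Fold changes are KIKO over WT, so that a negative log2 value is a lower level in KIKO mice. At the study's thresholds, a log2 fold change beyond 0.75 in size with an unadjusted p under 0.05, Glb1l was lower in KIKO mice and no lysosomal gene was higher. Glb1l entered the test only through its WT counts, and the number lower was 0 when 10 counts were required in every library. Over all genes, 0.487% were lower and 0.716% higher by this rule. The median log2 fold change was 0.08 over the 42 genes and 0.02 over all genes tested, and 17 of the 42 fold changes were below 0.

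The share of all counts taken by the 42 genes varied more within the groups than between them. It was 0.834% in WT replicate 1 (exact 95% interval 0.817 to 0.852) and 1.17% in WT replicate 2 (1.15 to 1.19). In the KIKO libraries it was 0.790% (0.775 to 0.805), 1.61% (1.59 to 1.63) and 0.763% (0.746 to 0.780) for replicates 1, 2 and 3. The intervals cover counting error only. The highest and the lowest share both belonged to KIKO libraries, and KIKO replicates 1 and 3 lay below both WT libraries. Summed over the 42 genes, the level was 10324 ± 2319 CPM in WT (SD, n = 2), compared with 10426 ± 4352 CPM in KIKO (SD, n = 3), and the KIKO mean was 7913 CPM without replicate 2.

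The libraries with the highest lysosomal sums also had the highest sums of markers of some cell types, but not of others. Their summed CPM was 8684 and 11963 in WT replicates 1 and 2, and 7983, 15450 and 7843 in KIKO replicates 1, 2 and 3. The 14 microglial markers summed to 5107 and 6081 CPM in WT and to 4364, 9417 and 5316 CPM in KIKO, with 11 of the 14 highest in KIKO replicate 2. The 6 oligodendrocyte markers summed to 5126 and 11785 CPM in WT and to 4506, 18822 and 5787 CPM in KIKO. KIKO replicate 2 was highest and WT replicate 2 second in all 3 sums, whereas the neuronal markers were lowest in those libraries (1723 and 1769 CPM, compared with 2616 to 2800 CPM in the other 3). The ratio of the lysosomal to the microglial sum was 1.83 ± 0.189 in WT (SD, n = 2), compared with 1.65 ± 0.177 in KIKO (SD, n = 3), with overlapping ranges of 1.70 to 1.97 and 1.48 to 1.83. The part of cell composition in these levels was not tested, and in bulk RNA fewer cells of a type and less RNA per cell cannot be told apart.

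**Figure D1:**
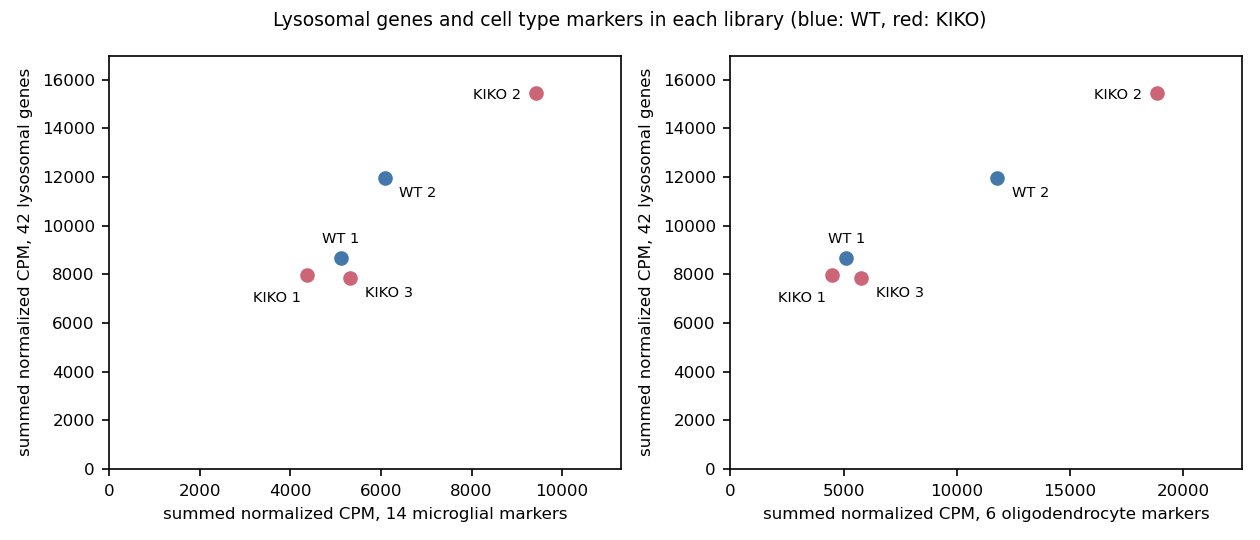
Summed normalized CPM of the 42 lysosomal genes (vertical axis) in each library against the sum of 14 microglial markers (left) and of 6 oligodendrocyte markers (right), with WT in blue and KIKO in red. KIKO replicate 2 lies at 15450 CPM and WT replicate 2 at 11963 CPM, and the other 3 libraries lie between 7843 and 8684 CPM.

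Gene by gene, 21 of the 42 lysosomal genes (50%) had their highest value in KIKO replicate 2, compared with 33.9% of all genes, and 19 (45.2%) exceeded 1.5 times the median of the other libraries there, compared with 29.9%. WT replicate 2 was above WT replicate 1 for 33 genes (78.6%), compared with 50.3% of all genes. In 5 genes, Ctsf, Lipa, Glb1l, Gla and Asah1, KIKO replicate 2 was instead the lowest library. Naglu, which removes terminal N-acetylglucosamine from heparan sulfate, varied least, with a ratio of highest to lowest library of 1.30, followed by Ctsd at 1.34 and Ppt1 at 1.43. Naglu held only 17 to 29 counts per library, so counting error alone could change its place in this order. Glb1l varied most, at 12.9.

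**Figure D2:**
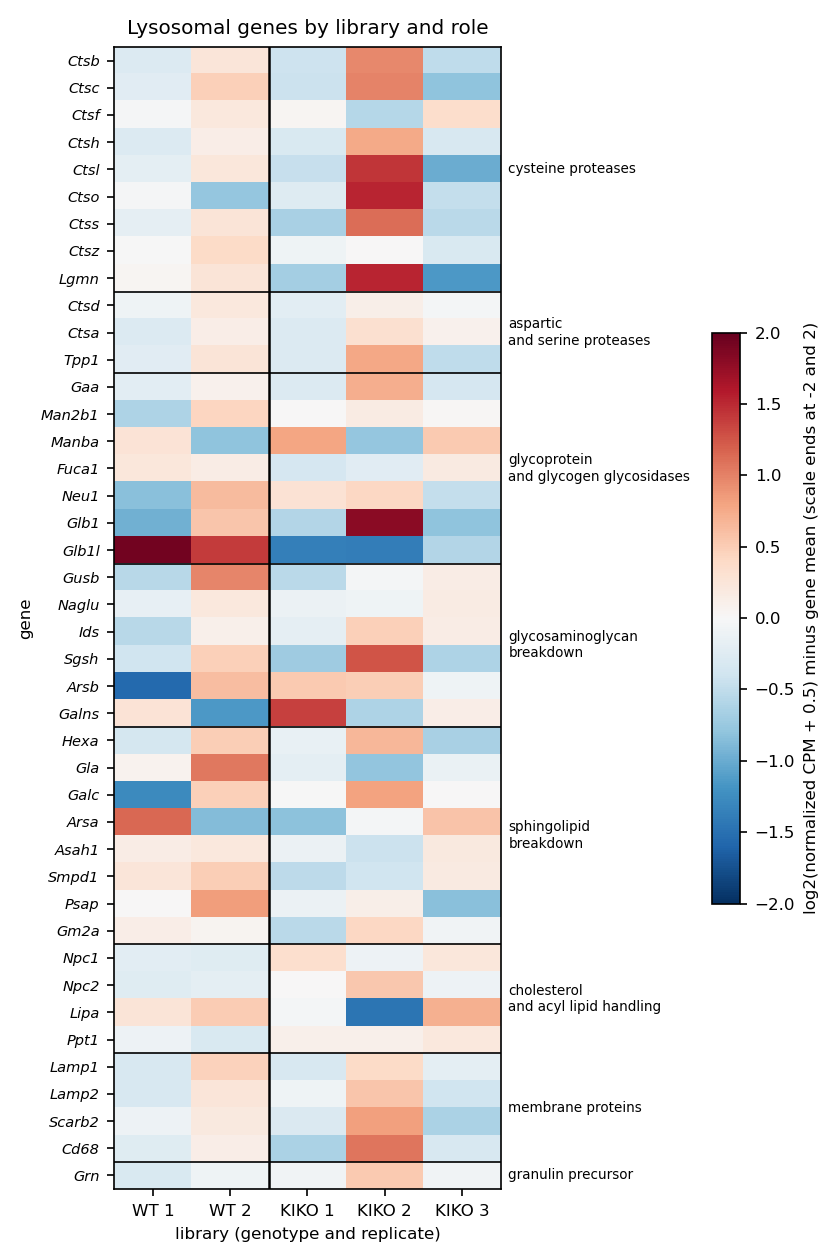
Level of each of the 42 lysosomal genes in each library as log2(normalized CPM + 0.5) minus the gene's mean over the 5 libraries (colour, red above and blue below the mean), ordered by role. KIKO replicate 2 holds the highest value of 21 genes, among them 7 of the 9 cysteine proteases and 3 of the 4 membrane proteins, and Glb1l is the gene with the largest spread.

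Per kilobase of exon, Ctss was the most abundant lysosomal gene, at 1689 CPM per kilobase on average over the 5 libraries, followed by Ctsd (803), Psap (285) and Lamp1 (186). Ctss ranged from 968 to 3278 CPM per kilobase and Ctsd from 691 to 927, so their ranges did not overlap, and neither overlapped with that of Psap (149 to 478). Psap and Lamp1 (144 to 248) did overlap, as did Ctsz (159 on average), Ctsb (127), Cd68 (116), Hexa (113), Grn (110) and Lgmn (106) with their neighbours in this order. At the other end were Arsa (2.77), Sgsh (2.14), Arsb (1.84), Galc (1.67) and Glb1l (1.35). Scaling by length applies only if reads cover whole transcripts. If each transcript gave a single tag near its end, the order by CPM alone applies. By mean CPM, Ctss, Ctsd and Psap keep ranks 1, 2 and 3, Ctsb moves to 4 and Npc2 from 11 to 7. The CPM ranges of Ctss (1314 to 4451) and Ctsd (1624 to 2179) overlapped, however. Ctsd was above Ctss in KIKO replicate 1 (1624 compared with 1314 CPM) and KIKO replicate 3 (1821 compared with 1419 CPM). The mean CPM of Ctss was the higher only through KIKO replicate 2 (4451 compared with 2045 CPM).

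The 9 cysteine proteases, the main endopeptidases and exopeptidases of the lysosome, accounted for the largest sum, from 2646 CPM in KIKO replicate 3 to 8118 CPM in KIKO replicate 2. None passed the study's thresholds in either direction, and 7 of the 9 were highest in KIKO replicate 2. The ratio of that library to the median of the others had a median of 2.48 over all 9 genes. Ctss (cathepsin S, which trims the invariant chain for antigen presentation) was at 1815 and 2469 CPM in WT and at 1314, 4451 and 1419 CPM in KIKO replicates 1, 2 and 3. KIKO replicate 2 was far above both WT libraries and the other KIKO libraries were below them, so the groups overlapped and the log2 fold change was 0.16 (SE 0.62, adjusted p = 1 by edgeR). Ctsb (cathepsin B, an endopeptidase and exopeptidase) had the same order of groups, with 587 and 834 CPM in WT and 531, 1379 and 500 CPM in KIKO (log2 fold change 0.18, SE 0.54).

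Ctsl (cathepsin L, a broad endopeptidase) was at 221 and 296 CPM in WT and at 184, 686 and 127 CPM in KIKO. Lgmn (legumain, which cleaves after asparagine and processes other cathepsins) was at 204 and 237 CPM in WT and at 124, 572 and 89.3 CPM in KIKO. Ctsc (cathepsin C, which activates serine proteases of immune cells) was at 186 and 301 CPM in WT and at 161, 431 and 124 CPM in KIKO. In all 3 genes, KIKO replicates 1 and 3 lay below both WT libraries and KIKO replicate 2 above both. Their log2 fold changes were 0.36 (SE 0.69), 0.25 (SE 0.74) and -0.03 (SE 0.57). Ctsh (an aminopeptidase) and Ctso were likewise highest in KIKO replicate 2, at 292 CPM compared with 138 to 189 CPM and at 50.2 CPM compared with 9.86 to 16.9 CPM. Ctsz (cathepsin Z, a carboxypeptidase) spanned only 184 to 297 CPM, and Ctsf was lowest in KIKO replicate 2 (27.8 CPM, compared with 40.8 to 52.8 CPM).

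When KIKO replicate 2 was left out, the comparison of these proteases changed direction or size. Over the 41 lysosomal genes that could then be tested (Sgsh no longer passed the count filter), Lgmn, Ctsc, Psap and Glb1l were lower in KIKO mice at the study's thresholds (9.76%, compared with 3.51% of 10373 genes) and none was higher (compared with 2.94%). Glb1l is counted here although it passed the count filter only through its WT libraries, where it was high. KIKO replicate 2 was singled out from these same data, so these shares are a description only. The log2 fold change was -1.05 for Lgmn (SE 0.27, adjusted p = 0.234), -0.78 for Ctsc (SE 0.28, adjusted p = 0.434), -0.93 for Psap (SE 0.29, adjusted p = 0.382) and -2.84 for Glb1l (SE 0.86, adjusted p = 0.34) by edgeR. Ctsl (-0.74) and Ctss (-0.65) had an unadjusted p under 0.05 but a fold change short of the threshold. None of the 41 passed an adjusted p of 0.05 by edgeR, whereas 5 genes of all did, and 6 of the 41 and 852 of all genes had an unadjusted p under 0.05. Both remaining KIKO libraries were below both WT libraries for 16 of the 41 (39%, compared with 19.2% of all genes) and above both for 5 (Npc1, Npc2, Ppt1, Grn and Manba, compared with 19.6%). The median log2 fold change was -0.26 over the 41 genes and -0.01 over all genes. In these 4 libraries the microglial markers averaged 5594 CPM in WT and 4840 CPM in KIKO mice (1 of 14 lower at the thresholds). The choroid plexus markers averaged 11209 and 7296 CPM (3 of 6 lower), most of it from Ttr alone, and the oligodendrocyte markers 8456 and 5147 CPM (2 of 6 lower). The neuronal markers averaged 2232 and 2708 CPM (1 of 6 higher) and the Purkinje cell markers 193 and 330 CPM (2 of 4 higher). The part of these cells in the lower values was not tested.

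**Figure D3:**
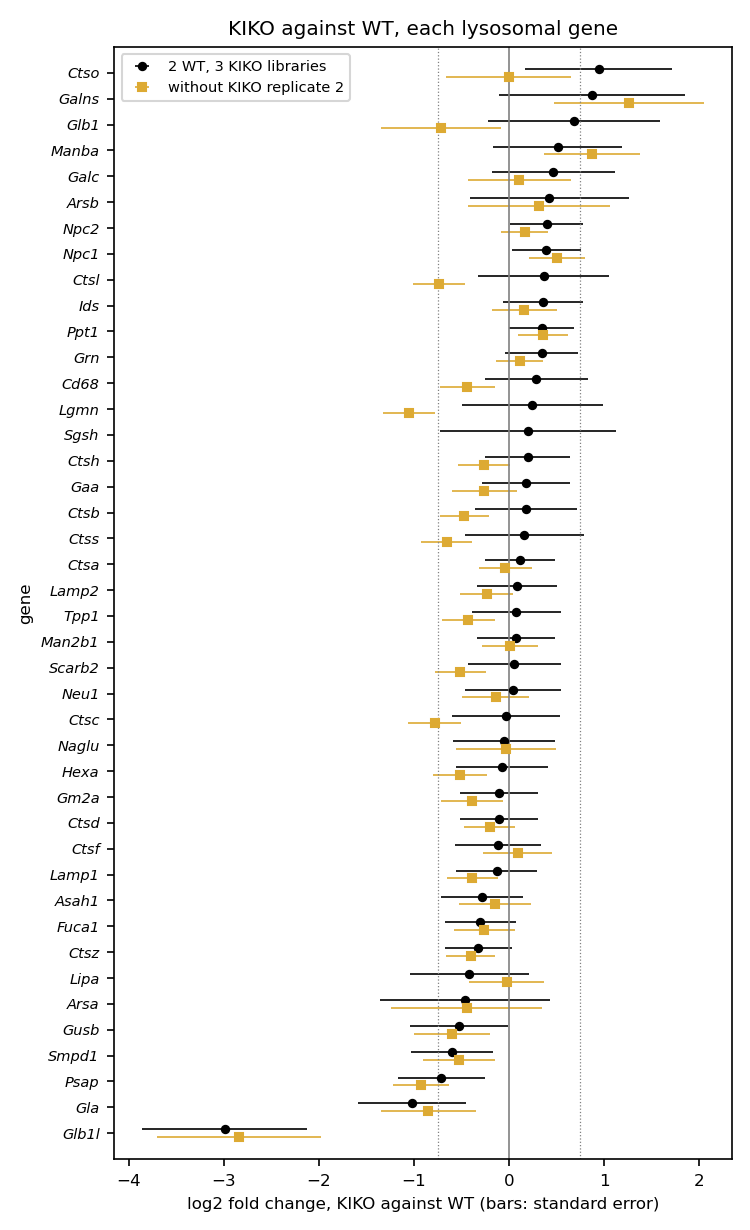
Log2 fold change of each lysosomal gene, KIKO against WT, from edgeR with all 5 libraries (black circles) and without KIKO replicate 2 (yellow squares), with standard errors as bars and dotted lines at the study's threshold of 0.75 in size. Lgmn moves from 0.25 to -1.05 and Ctsl from 0.36 to -0.74 when that library is left out, whereas Glb1l stays at -2.99 and -2.84.

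None of the 3 aspartic and serine proteases passed the thresholds. Ctsd (cathepsin D, the main aspartic endopeptidase) was at 1770 and 2179 CPM in WT and at 1624, 2045 and 1821 CPM in KIKO replicates 1, 2 and 3. The groups overlapped, and the log2 fold change was -0.11 (SE 0.41, adjusted p = 1 by edgeR). Ctsa (protective protein of β-galactosidase and neuraminidase) ranged from 111 to 167 CPM, and Tpp1 (tripeptidyl peptidase, lost in a neuronal ceroid lipofuscinosis) from 108 to 262 CPM with its highest value in KIKO replicate 2.

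Among the 7 glycosidases of glycoproteins and glycogen, Glb1l was the only gene past the study's thresholds. Glb1l encodes a protein related to β-galactosidase and lies on the minus strand of chromosome 1 (GRCm38, 75198236 to 75210813). It had 20 and 18 counts in WT and 2, 2 and 3 counts in KIKO, or 19.9 and 13.7 CPM compared with 1.58, 1.55 and 3.04 CPM. Both WT libraries were above all 3 KIKO libraries, each of which was at or under the floor of 3 counts. The log2 fold change was -2.99 (SE 0.87, p = 0.00808, adjusted p = 1 by edgeR), and the ratio of WT to KIKO levels over the summed counts, 38 and 7, was 8.29 with an exact 95% interval of 3.66 to 22 for counting error alone. Leaving out 1 library gave -3.34 to -2.70, a direction that the lack of overlap fixes, and p was 0.0984 without WT replicate 1. Glb1l passed the filter on low counts only through the WT libraries, where it was high, and it was not tested when 10 counts were required in every library. The exons of Glb1l share 116 bases on the same strand and 505 on the other strand with Ankzf1 and Gm27943. Ankzf1 was at 29.9 and 62.2 CPM in WT and 39.4, 73.4 and 47.7 CPM in KIKO (log2 fold change 0.21, SE 0.49). The part of the shared bases in the Glb1l difference was not tested. How the counting assigned reads in the shared bases is not given in the sources used here.

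Glb1 (β-galactosidase itself) had the largest excess of KIKO replicate 2, 64.1 CPM or 5.84 times the median of the others, which ranged from 8.97 to 26.5 CPM. Its log2 fold change was 0.68 with all libraries and -0.72 without that library (SE 0.91 and 0.63). Gaa (acid α-glucosidase, which degrades glycogen) was also highest there, at 98.1 CPM compared with 46.7 to 63.0 CPM. Man2b1 (α-mannosidase, 110 to 228 CPM) and Neu1 (sialidase, 57.8 to 161 CPM) had both their lowest and highest values in the WT libraries. Fuca1 (α-fucosidase) ranged from 54.4 to 80.7 CPM, and Manba (β-mannosidase) was highest in KIKO replicates 1 and 3 at 33.1 and 27.4 CPM, compared with 10.6 to 22.9 CPM elsewhere.

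The 6 enzymes of glycosaminoglycan breakdown were expressed at low levels, and none passed the thresholds. Naglu was at 16.9 and 22.0 CPM in WT and 17.4, 17.8 and 21.3 CPM in KIKO. Gusb (β-glucuronidase) ranged from 35.9 to 105 CPM, with both of these values in WT libraries. Ids (iduronate sulfatase) ranged from 41.8 to 85.8 CPM. Sgsh (heparan N-sulfatase) was at 20.1 CPM in KIKO replicate 2 and at 4.73 to 11.4 CPM elsewhere. Arsb and Galns, both sulfatases, ranged from 2.99 to 15.2 CPM and from 3.03 to 19.7 CPM. At these levels the lowest libraries of Arsb and Galns stood at about the floor, so only large differences could have been detected.

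The 8 genes of sphingolipid breakdown had the lowest median log2 fold change of the groups of several genes, -0.37, and none passed the thresholds with all libraries. Psap (prosaposin, the precursor of the saposin activators) was the third most abundant lysosomal gene, at 732 and 1311 CPM in WT and 671, 791 and 408 CPM in KIKO. KIKO replicate 2 lay between the WT libraries and the other KIKO libraries below both. The log2 fold change was -0.71 (SE 0.46, adjusted p = 1 by edgeR), and the value without KIKO replicate 2 is given above. Gla (α-galactosidase A, which degrades globotriaosylceramide) was at 19.9 and 40.2 CPM in WT and 16.6, 10.8 and 17.3 CPM in KIKO. Smpd1 (acid sphingomyelinase) was at 48.8 and 57.6 CPM in WT and 28.4, 30.9 and 46.7 CPM in KIKO. Each KIKO library was below both WT libraries for both genes, by a small margin for KIKO replicate 3. For Gla the margin was also small for KIKO replicate 1, which had 21 counts before scaling, compared with 20 in WT replicate 1. The log2 fold changes were -1.02 for Gla (SE 0.57) and -0.60 for Smpd1 (SE 0.43), each with an adjusted p of 1 by edgeR. With Glb1l, 3 of the 42 genes were lower in KIKO without overlap, compared with 8.51% of all genes tested.

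The other genes of this group overlapped between WT and KIKO mice. Hexa (α subunit of β-hexosaminidase) ranged from 136 to 337 CPM and Gm2a (its ganglioside activator) from 48.9 to 95.05 CPM, both highest in KIKO replicate 2. Galc (galactosylceramidase, which degrades a lipid of myelin) was at 8.97 and 31.1 CPM in WT and 22.1, 39.4 and 22.3 CPM in KIKO. Its highest libraries, KIKO replicate 2 and WT replicate 2, were also the highest for the oligodendrocyte markers. The same libraries were highest for the microglial markers and for the lysosomal genes summed, so this order is not particular to Galc. Arsa (arylsulfatase A) ranged from 4.55 to 19.9 CPM, with both values in WT, and Asah1 (acid ceramidase) from 27.8 to 44.0 CPM.

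Of the 42 lysosomal genes, 4 were higher in KIKO without overlap, compared with 8.2% of all genes tested. The 4 genes of cholesterol and acyl lipid handling included 3 of them, and none of this group passed the study's thresholds. Npc2 (the soluble protein that hands cholesterol to NPC1) was at 263 and 274 CPM in WT and 314, 454 and 290 CPM in KIKO. Npc1 (the membrane protein that exports cholesterol from the lysosome) was at 75.7 and 73.6 CPM in WT and 110, 81.1 and 102 CPM in KIKO. Ppt1 (palmitoyl-protein thioesterase, which removes fatty acids from proteins) was at 170 and 149 CPM in WT and 196, 198 and 213 CPM in KIKO. Each KIKO library lay above both WT libraries in all 3 genes. The log2 fold changes were 0.39 for Npc2 (SE 0.38), 0.39 for Npc1 (SE 0.36) and 0.34 for Ppt1 (SE 0.34), all with an adjusted p of 1 by edgeR. These differences were about as large as their standard errors. Leaving out 1 library gave fold changes of 0.17 to 0.52 for Npc2, 0.30 to 0.51 for Npc1 and 0.23 to 0.44 for Ppt1, and groups that do not overlap fix this direction. Lipa (acid lipase, which hydrolyses cholesteryl esters) instead ranged from 10.8 CPM in KIKO replicate 2 to 50.7 CPM in KIKO replicate 3. The 4 genes summed to 543 ± 4.13 CPM in WT (SD, n = 2), compared with 684 ± 52.4 CPM in KIKO (SD, n = 3). This sum holds the same 3 genes whose groups do not overlap, so it is no separate support. Between the WT libraries Npc2 rose and Ppt1 fell from replicate 1 to replicate 2, which narrows the WT SD of the sum.

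Grn (progranulin, the precursor of the granulins, whose loss causes a lysosomal disorder of the brain) was the fourth gene higher in KIKO without overlap. It was at 305 and 353 CPM in WT and 358, 539 and 356 CPM in KIKO, so that the margin between WT replicate 2 and KIKO replicates 1 and 3 was small. Its log2 fold change was 0.34 (SE 0.38, adjusted p = 1 by edgeR).

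**Figure D4:**
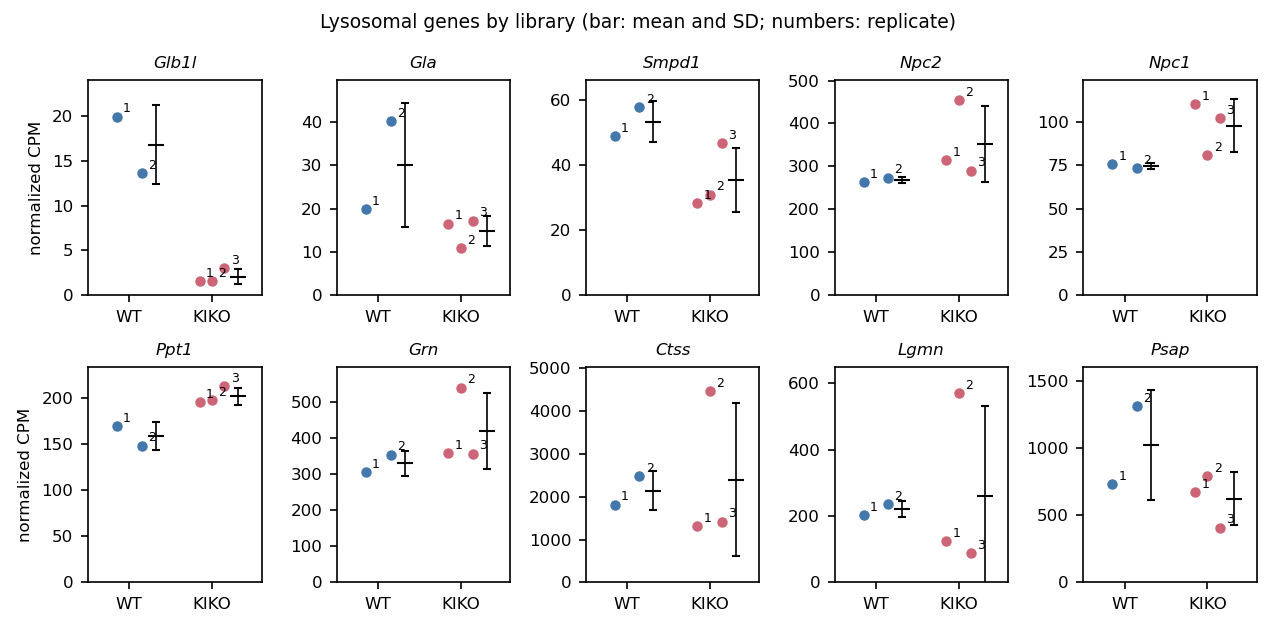
Normalized CPM by library for 10 lysosomal genes, WT in blue and KIKO in red, with replicate numbers beside the points and the group mean ± SD in black. Glb1l, Gla and Smpd1 have all 3 KIKO libraries below both WT libraries, Npc2, Npc1, Ppt1 and Grn have them above, and in Ctss and Lgmn KIKO replicate 2 lies above and the other KIKO libraries below both WT libraries.

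The 4 membrane proteins overlapped between groups. Lamp1, the major glycoprotein of the limiting membrane, was at 387 and 663 CPM in WT and 386, 631 and 424 CPM in KIKO (log2 fold change -0.13, SE 0.43). Its highest libraries were WT replicate 2 and KIKO replicate 2, in that order. Lamp2 (a membrane protein of chaperone-mediated autophagy) ranged from 133 to 259 CPM, Scarb2 (the receptor that carries β-glucocerebrosidase) from 114 to 312 CPM and Cd68 (macrosialin, a macrophage marker) from 85.2 to 279 CPM. All 3 were highest in KIKO replicate 2.

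Other lists of lysosomal genes gave no call at the study's thresholds, by which 0.487% of all genes were lower and 0.716% higher. At the study's thresholds 0 of 25 tested genes of other lysosomal enzymes, 0 of 22 of other membrane proteins, 0 of 18 of the proton pump (V-ATPase), 0 of 12 of sorting to lysosomes, 0 of 4 of cathepsin inhibitors and 0 of 22 of TFEB and mTORC1 signalling passed in either direction. None had an adjusted p under 0.05 by edgeR or DESeq2. Their median log2 fold changes lay between -0.06 and 0.19. Examples are the most abundant members of the lists other than the enzymes. Cst3 (cystatin C, a secreted inhibitor of cysteine cathepsins) was at 3456 and 5371 CPM in WT and 3671, 8450 and 2829 CPM in KIKO. Sort1 (sortilin, a sorting receptor) was at 236 CPM in KIKO replicate 2 and at 62.2 to 71.7 CPM elsewhere. Both shared the excess in KIKO replicate 2 seen for the cysteine proteases. Sort1 was the most abundant of its list only through that library, so it is no independent example. In the other libraries Gga3 of the same list, at 74.1 to 88.7 CPM, was above Sort1. Laptm5 (a lysosomal membrane protein of immune cells) was instead lowest there, at 252 CPM compared with 319 to 613 CPM. Atp6v1a (catalytic subunit of the proton pump) ranged from 278 to 446 CPM and Fnip1 (a partner of folliculin in mTORC1 signalling) from 127 to 242 CPM. Without KIKO replicate 2, of 103 tested genes of these lists, 6 were lower at the study's thresholds (Arsg, Slc11a1, Atp6v1g1, Gnptg, Rraga and Flcn) and 2 higher, compared with 3.51% and 2.94% of all genes, and their adjusted p by edgeR was 0.413 to 0.557. The higher ones were Mcoln1 (a calcium channel of the lysosomal membrane) and Vps29 (a subunit of retromer). Mcoln1 was at 21.9 and 21.2 CPM in WT and 53.6, 3.09 and 38.6 CPM in KIKO, so that KIKO replicate 2 was the lowest library and KIKO replicates 1 and 3 the highest.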

How the data were processed

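Bulk RNA-seq libraries of cerebellum (2 WT, 3 KIKO) were analysed from the whole-number counts per gene that the authors deposited. Per the labels, reads were aligned with HISAT2 to mm10, counted with featureCounts and normalized with DESeq2. The deposited log2 values equalled log2(count / size factor + 1) for 100% of values within 0.01 and were used only as an alternative input. Each table also held 2 columns that matched no sample, and these were not used. Symbols came from GENCODE M21 (GRCm38) for 30934 of 31053 identifiers.

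Genes were filtered with filterByExpr (minimum count 10, minimum total 15), leaving 10889 genes with 98.6% to 98.9% of counts, scaled by TMM and tested with edgeR's quasi-likelihood test (two-sided, Benjamini-Hochberg over all genes tested; edgeR 4.0.16, R 4.3.3). The step was tested on simulated data. DESeq2 1.42.0, limma 3.58.1, other scalings and filters, a replicate block and leaving out each library were tried. Libraries held 1013107 to 1351339 counts, and intervals cover counting error only.

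The genes, lists and rules were chosen with earlier results of these data known. Full values are given for genes past the study's thresholds, the 10 most abundant, and those whose groups did not overlap (mean of at least 10 counts). Groups of 2 and 3 libraries were too small for a test of single outlying libraries. The targeted gene and one lysosomal enzyme gene are not reported here.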

Additional observations from a re-analysis of the deposited data

How the results depend on the processing

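Among the lysosomal genes, the count with an adjusted p under 0.05 and the count higher at the study's thresholds were 0 in every alternative tried. The number lower was 1, 0 when at least 10 counts were required in every library, which removed Glb1l, and 0 to 4 when 1 library was left out (0 without WT replicate 1, 4 without KIKO replicate 2). Over all genes, 78 were higher and 53 lower. Without the filter beyond 1 count these were 256 and 127, and 1 gene had an adjusted p under 0.05. Leaving out 1 library gave 41 to 305 higher, 15 to 364 lower and 0 to 5 with an adjusted p under 0.05, the largest counts without KIKO replicate 2 and the smallest without WT replicate 1, with 15 lower also without WT replicate 2. Replicate numbers are shared by WT and KIKO. The correlation of deviations was 0.158 and 0.205 for the same numbers and 0.187 for WT replicate 1 with KIKO replicate 3. With 2 WT libraries the WT deviations mirror each other, so each KIKO library had a positive value with WT replicate 1 or 2. These values therefore cannot decide whether the numbers pair the libraries, and the main fit did not pair them. With the replicate block, which leaves 1 residual degree of freedom, 162 genes were lower, 109 higher, and 1 lysosomal gene was lower. The log2 fold change changed sign with limma on the deposited log2 values for Ctss (-0.055), Ctsl (-0.011) and Lgmn (-0.24), and for Ctsc with scaling by library size alone (0.042) and with the replicate block (0.16). Leaving out 1 library gave -0.65 to 0.46 for Ctss, -0.26 to 0.032 for Ctsd, -0.47 to 0.43 for Ctsb, -0.48 to 0.29 for Lamp1, -0.74 to 0.75 for Ctsl, -1.05 to 0.65 for Lgmn and -0.78 to 0.33 for Ctsc, so none of these 7 genes kept one direction. The range was -3.34 to -2.70 for Glb1l, -1.08 to -0.25 for Psap, -0.37 to 0.17 for the summed level and -0.28 to 0.22 for the median level (log2). The cause was not tested. Depth limits the genes under about 10 CPM, where 1 library holds few counts.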
